A study of Homo sapiens with 15 samples.

Results

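The 4 genes examined here belong to 1 histone supply route: CDIN1, which the deposited table lists under its older symbol C15orf41, CDAN1, ASF1A and ASF1B. They were chosen by name, as the rows of the table for the codanin complex and the ASF1 chaperones, and make up 4 of the 35805 genes listed. HEK-293T cells, a transformed human embryonic kidney line, were sequenced in 15 libraries of 5 groups, with 3 biological replicates in each. All groups came from a single knock-in clone, in which a green fluorescent protein (GFP) reporter had been inserted at the endogenous PSMB5 gene, and which also carried exogenous PSMB5 delivered by lentivirus. The untransduced group, given the genotype Wild-type in the labels, received nothing further. The sg1-Control and sg2-Control groups received a lentiviral vector for Cas9 and a control guide directed at an intron. The sg1-THAP1 and sg2-THAP1 groups received Cas9 and a guide against THAP1, a zinc finger transcription factor mutated in an inherited dystonia, and were sorted as populations with dim GFP, not as clones. The guide and the sort therefore cannot be told apart in these groups. Below, sgControl and sgTHAP1 stand for the 6 libraries of both control guides and of both THAP1 guides, and the comparison between them addresses which genes depend on THAP1.

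ASF1A and ASF1B are the paralogous chaperones that carry histone H3-H4 dimers and pass them to the factors that build nucleosomes. ASF1B is known mainly from proliferating cells, whereas ASF1A is more broadly expressed. Codanin, the product of CDAN1, binds ASF1 proteins in the cytosol and holds them there, and CDIN1 (codanin interacting nuclease) binds codanin. Mutations in both copies of CDAN1 or of CDIN1 cause congenital dyserythropoietic anaemia type I, in which the chromatin of erythroblasts has a spongy look.

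On the GRCh38 coordinates of the deposited table, CDIN1 occupies chromosome 15 from 36579611 to 36810248 on the plus strand. CDAN1 lies on the same chromosome, from 42723559 to 42737126 on the minus strand. ASF1A spans chromosome 6 from 118894220 to 118909167 on the plus strand, and ASF1B spans chromosome 19 from 14119509 to 14136956 on the minus strand. RefSeq promoter sequences on GRCh38.p14, each 250 bases before and 50 bases after an annotated start, matched 3 of the 4 genes, CDIN1, ASF1A and ASF1B, with 4 entries. The start used for CDIN1 lies 15 bp, that for ASF1A 68 bp and that for ASF1B 367 bp from the deposited start. They are shown because THAP1 binds DNA and because CDIN1 changed most of the 4 genes in the THAP1 guide groups. Capitals mark matches, on either strand, to the THAP1 consensus TNNNGGCA and to ATGGCGGC, a form of the YY1 core that was searched after the CDIN1 sequence had been seen. The windows are chr15:36579376-36579675 on the plus strand, chr6:118893902-118894201 on the plus strand and chr19:14136540-14136839 on the minus strand.
CDIN1: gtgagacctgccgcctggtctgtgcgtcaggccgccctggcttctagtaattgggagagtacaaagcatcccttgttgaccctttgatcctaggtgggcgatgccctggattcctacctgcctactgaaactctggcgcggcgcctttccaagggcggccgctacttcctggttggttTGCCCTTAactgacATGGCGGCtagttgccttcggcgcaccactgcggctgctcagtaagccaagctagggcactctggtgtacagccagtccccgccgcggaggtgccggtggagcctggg
ASF1A: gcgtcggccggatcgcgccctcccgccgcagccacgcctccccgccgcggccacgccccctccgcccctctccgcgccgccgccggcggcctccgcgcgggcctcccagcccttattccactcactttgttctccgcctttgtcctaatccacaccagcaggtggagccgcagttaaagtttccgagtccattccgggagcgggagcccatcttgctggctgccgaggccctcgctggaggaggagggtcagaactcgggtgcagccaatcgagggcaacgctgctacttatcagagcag
ASF1B: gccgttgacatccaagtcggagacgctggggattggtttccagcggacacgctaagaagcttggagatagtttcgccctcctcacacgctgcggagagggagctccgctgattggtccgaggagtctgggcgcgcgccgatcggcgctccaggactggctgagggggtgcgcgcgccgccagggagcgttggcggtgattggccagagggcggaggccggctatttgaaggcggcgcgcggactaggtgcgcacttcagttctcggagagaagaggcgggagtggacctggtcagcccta

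The CDIN1 window held 1 match to the THAP1 consensus, on the minus strand and printed above as TGCCCTTA, at bases -72 to -65 from the start. It held 1 ATGGCGGC on the plus strand, at bases -58 to -51, which does not overlap the other match. The other form of the YY1 core, AANATGGC, was found in 0 of the 3 windows, and the ASF1A and ASF1B windows held none of the 3 letter patterns. A second RefSeq start of CDIN1, 15266 bp downstream of the deposited one, had none either. Such matches are common. Of 35116 RefSeq promoters of the same length, 41.7% held the THAP1 consensus, 6.58% held AANATGGC and 3.0% held ATGGCGGC. Matches here describe letters in a window and do not show that a factor binds there.

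The libraries held from 30400149 to 56638461 reads, recovered from the steps between low values, and 90.8% to 94.5% of a library's reads lay in listed genes. Levels are given as the deposited log2 RPM, the log2 of a gene's reads scaled by the authors to a fixed library total. A change is a difference of mean log2 RPM, tested with limma over the 16787 genes that reached -2 on this scale in 3 libraries or more, and is said to have passed at a Benjamini-Hochberg adjusted p under 0.05. The THAP1 transcript was higher in libraries labelled sgTHAP1, at 5.48 to 6.18 against 3.25 to 3.57 in sgControl, and its level does not report the edits. Of 8 HEK-293 markers, 7 were tested and PAX8 was at 0 reads in every library. Between sgTHAP1 and sgControl 2 of these fell and 1 rose, against 32.6% and 20.2% of all genes. IRS4, an insulin receptor substrate, changed by -1.40, LIN28B, an RNA-binding protein, by -0.57 and NEFM, a neurofilament subunit named after its value was seen, by 0.51. Of 7 leukocyte markers 3 were tested, and neither the leading pair, CD14 and ITGAM, nor CD68 passed between sgTHAP1 and sgControl.

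Per length, the 4 genes kept 1 order in every group. In untransduced cells, CDIN1 stood at 1.36 ± 0.04 RPM per kilobase of merged exons (SD, n = 3) and CDAN1 at 4.45 ± 0.08. ASF1A stood at 10.7 ± 0.4 and ASF1B at 28.9 ± 0.4 on the same scale. The chaperones were thus well above both codanin complex genes, and no neighbours in this order overlapped within a group. The lengths are those of all annotated exons merged (GENCODE release 44), from 1958 bp for ASF1B to 9278 bp for CDIN1, so a gene with many rarely used exons reads low.

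CDIN1 fell in both THAP1 guide groups and had the largest change of the 4 genes there. The 3 untransduced libraries stood at 3.71, 3.62 and 3.64 log2 RPM, from 380 to 450 reads. The sg1-Control libraries stood at 3.17, 3.29 and 3.01 and the sg2-Control libraries at 3.04, 3.22 and 3.19, from 285 to 553 reads. With sg1-THAP1 the values were 0.31, 0.07 and 0.30, from 33 to 38 reads, and with sg2-THAP1 they were 1.54, 1.57 and 1.36, from 93 to 123 reads. All 6 sgTHAP1 libraries lay below all others, the sg1-THAP1 libraries lay below the sg2-THAP1 libraries, and the control guides overlapped each other. Between sgTHAP1 and sgControl the log2 change was -2.29 (SE 0.22, limma adjusted p = 2.3e-08), which leaves 20.4% of the control level (95% confidence interval 14.96% to 27.9%). The exact two-sided permutation test over 6 against 6 libraries gave p = 0.00216, the smallest it can give. The pooled p-values here and below treat the 3 libraries of a guide as independent of each other, although they share that guide. Of all genes tested in this comparison, 32.6% were called lower and 20.2% higher at the same adjusted p. At the study's thresholds, which ask for an adjusted p under 0.001 beside a greater than 2-fold change, 1.83% of genes (308) were called lower, CDIN1 among them. The study also set aside genes that differed between untransduced and control guide cells, a step not applied here. CDIN1 ranked 46 by size of fall. In bulk RNA, fewer cells that express a gene and less RNA of it per cell cannot be told apart, which in these edited populations includes cells that may have kept THAP1.

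The THAP1 guides differed in how far CDIN1 fell. Against sg1-Control, sg1-THAP1 left 13.2% of the level (95% confidence interval 11.1% to 15.6%) and sg2-THAP1 left 31.6% (26.6% to 37.5%). Against sg2-Control the shares were 13.2% and 31.7%, and these 4 contrasts share libraries. In the fit with 1 coefficient per guide, CDIN1 passed in each, where 55.6% of all genes were called in either direction for sg1-THAP1 against sg1-Control, 54.4% for sg1-THAP1 against sg2-Control, 52.5% for sg2-THAP1 against sg1-Control and 51.2% for sg2-THAP1 against sg2-Control. Set directly against each other, sg1-THAP1 was lower than sg2-THAP1 by a log2 change of -1.27 (SE 0.12, limma adjusted p = 2.6e-11), or 41.6% of its level. Between these guides 28.3% of all genes were called lower and 11.7% higher. With 3 libraries against 3 the exact permutation test cannot go below p = 0.1, which it reached. A fall between the THAP1 guides at least as large as that of CDIN1 was found for 303 genes. Of the 308 genes called lower in sgTHAP1 at the study's thresholds, 70 were also lower with sg1-THAP1 than with sg2-THAP1 and 26 were higher. Between sg1-Control and sg2-Control, where 3.88% of genes were called in either direction, the CDIN1 difference was 0.0042 (95% confidence interval -0.24 to 0.25).

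Against untransduced cells the control guides were also lower in CDIN1. The log2 change was -0.51, or 70.5% of the untransduced level, and all 6 sgControl libraries lay below all 3 untransduced libraries. Its size depended on scaling, with -0.23 after quantile normalization (limma adjusted p = 0.408) and -0.35 after median centring (limma adjusted p = 0.207), and its call depended on the model. In the fit of 3 conditions, whose estimate of the spread includes the gap between the THAP1 guides, the SE was 0.26 and the limma adjusted p 0.0946. With 1 coefficient per guide the SE was 0.11 and the limma adjusted p 4.7e-05. By the exact permutation test p was 0.0238, the lowest value possible for 6 libraries against 3. In this comparison 40.5% of genes were called lower and 28.1% higher. From untransduced cells to sgTHAP1 the change was -2.80 (SE 0.26, limma adjusted p = 7.2e-09), which leaves 14.4%. There 45.5% of genes were called lower and 26.9% higher, and 13.4% were called lower at the study's thresholds, CDIN1 among them. The comparisons share the control or the untransduced libraries.

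CDAN1, which encodes the partner of CDIN1 and the binder of ASF1, did not fall with the THAP1 guides. Its levels were 4.62, 4.57 and 4.60 log2 RPM in untransduced cells. They were 4.34, 4.31 and 4.37 in the sg1-Control libraries and 4.33, 4.11 and 4.36 in those of sg2-Control. With sg1-THAP1 they were 4.44, 4.41 and 4.55, and with sg2-THAP1 4.67, 4.46 and 4.55. Every sgTHAP1 library lay above every sgControl library, and the highest of them passed the untransduced range. The log2 change between sgTHAP1 and sgControl was 0.21 (SE 0.05, limma adjusted p = 0.00224), a rise of 15.9%, and the exact permutation test gave p = 0.00216, again its smallest. Against untransduced cells, sgControl was lower by a change of -0.30 (SE 0.07, limma adjusted p = 0.000459), a level of 81.2%. That change was -0.21 with quantile normalization and -0.14 with median centring (limma adjusted p = 0.046), and passed in both. Of all genes, 20.2% were called higher and 32.6% lower in sgTHAP1 than in sgControl. From untransduced cells to sgControl, 40.5% were called lower and 28.1% higher.

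The net difference of CDAN1 between sgTHAP1 and untransduced cells was small and its sign depended on scaling. The change was -0.09 (95% confidence interval -0.22 to 0.05, limma adjusted p = 0.244). With quantile normalization it was 0.08, and after centring each library on its median it was 0.18, which passed (limma adjusted p = 0.0114). By guide, the rise over the control guides ran from 0.13 (sg1-THAP1 against sg1-Control, limma adjusted p = 0.0871) to 0.30 (sg2-THAP1 against sg2-Control, limma adjusted p = 0.000163). The THAP1 guides did not differ detectably from each other, with a difference of -0.09 (95% confidence interval -0.22 to 0.04). The control guides did not either, with a difference of 0.07 (95% confidence interval -0.06 to 0.20).

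**Figure D1:**
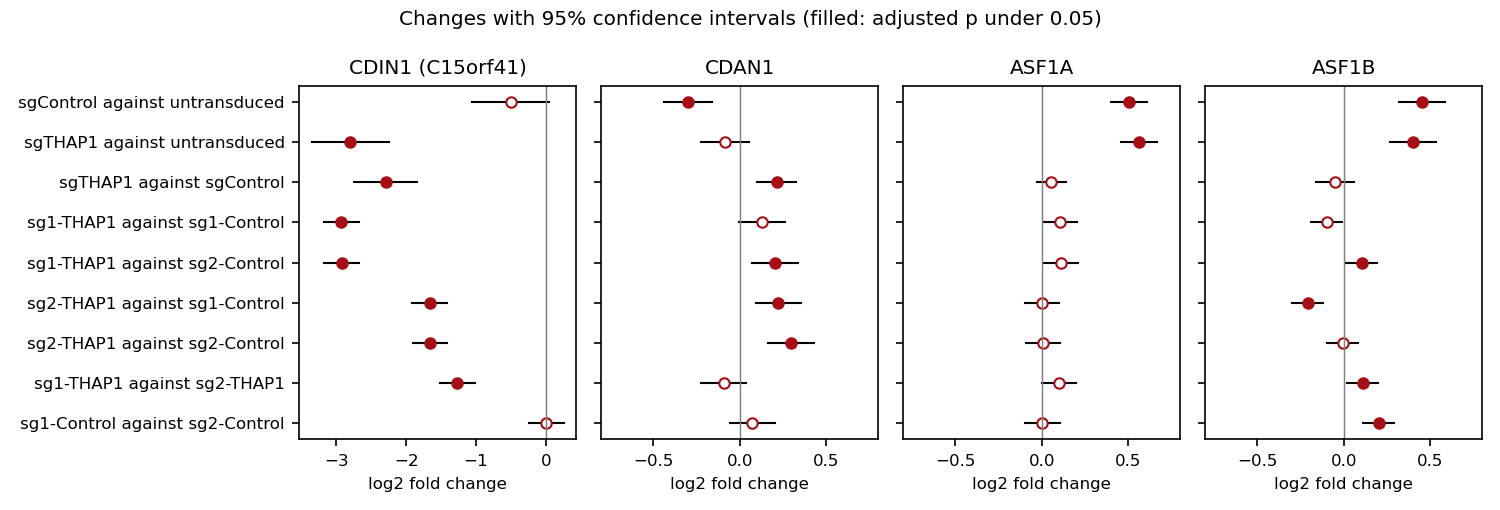
Log2 fold change of each gene, with its 95% confidence interval, in 9 comparisons, with filled points where the limma adjusted p was under 0.05. The upper 3 come from the fit of 3 conditions and the others from the fit with 1 coefficient per guide, and the horizontal scale of CDIN1 is wider than that of the others. CDIN1 is at -2.29 in sgTHAP1 against sgControl, where ASF1A (0.06) and ASF1B (-0.05) have intervals that include 0.

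Taking CDIN1 against CDAN1 within each library removes any scaling of whole libraries. The difference in log2 RPM, CDIN1 minus CDAN1, was -0.94 ± 0.02 in untransduced cells (SD, n = 3), -1.18 ± 0.17 with sg1-Control and -1.11 ± 0.20 with sg2-Control. It was -4.24 ± 0.10 with sg1-THAP1 and -3.07 ± 0.15 with sg2-THAP1. The transcripts of these binding partners thus kept a near-constant proportion in 3 groups and parted in the THAP1 guide groups, where none of the 6 libraries overlapped the other 9. These values are on the RPM scale, without division by length.

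**Figure D2:**
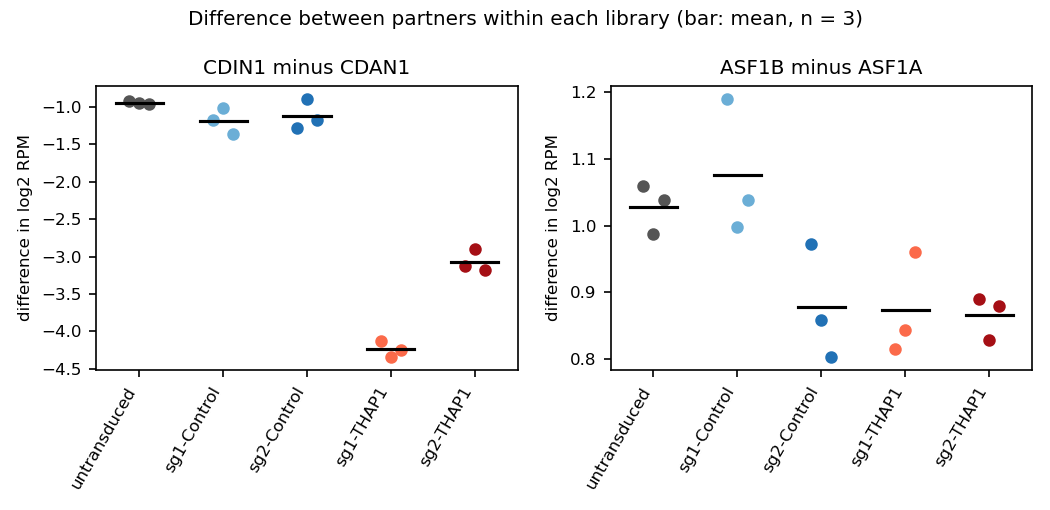
Difference in log2 RPM between partner genes within each library, by group, with the mean of 3 libraries. CDIN1 minus CDAN1 lies between -1.36 and -0.89 in the 9 libraries without a THAP1 guide and between -4.34 and -2.89 in the 6 with one, and ASF1B minus ASF1A lies between 0.80 and 1.19 throughout.

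ASF1A, the more broadly expressed H3-H4 chaperone, was higher in every transduced group than in untransduced cells. Untransduced libraries stood at 4.74, 4.86 and 4.79 log2 RPM. The sg1-Control libraries stood at 5.24, 5.32 and 5.34 and the sg2-Control libraries at 5.30, 5.33 and 5.26. The sg1-THAP1 libraries stood at 5.47, 5.35 and 5.40 and the sg2-THAP1 libraries at 5.28, 5.34 and 5.29. All 12 transduced libraries lay above the untransduced ones, and sgTHAP1 and sgControl overlapped, although the 3 sg1-THAP1 libraries lay above all 6 sgControl libraries. The change between sgTHAP1 and sgControl was 0.06 (95% confidence interval -0.03 to 0.14, limma adjusted p = 0.263, exact permutation p = 0.134). With median centring it was 0.17 and passed (limma adjusted p = 0.00583), as did sg1-THAP1 alone against both control guides at 0.11 (limma adjusted p = 0.0402). Against untransduced cells ASF1A rose by 0.50 in sgControl (SE 0.05, limma adjusted p = 2.0e-08), to 142% of the level, and by 0.56 in sgTHAP1 (SE 0.05, limma adjusted p = 3.0e-09), to 147%. Such calls were common, with 28.1% of all genes higher and 40.5% lower in sgControl, and 26.9% higher and 45.5% lower in sgTHAP1.

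ASF1A shares its position with another gene. MCM9, a helicase of DNA repair, lies on the opposite strand from 118813442 to 118935162 of chromosome 6 and contains all of ASF1A. Whether the counting used strand is not given in the sources used here, so reads of the pair may not be fully separated. MCM9 stood at 4.59 to 4.80 log2 RPM in untransduced cells, 5.14 to 5.31 in sgControl and 4.60 to 4.98 in sgTHAP1. It rose with the control guides like ASF1A (change 0.55, SE 0.07, limma adjusted p = 7.5e-07) but fell between sgControl and sgTHAP1 (change -0.43, SE 0.06, limma adjusted p = 2.5e-06), where ASF1A did not pass. Its part in the ASF1A values was not tested. The antisense genes inside CDIN1, CDAN1 and ASF1B had at most 7 reads in any library.

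ASF1B, the paralogue tied to proliferation, likewise stood higher in every transduced group. Untransduced libraries stood at 5.80, 5.84 and 5.83 log2 RPM. The sg1-Control libraries read 6.43, 6.32 and 6.38, and those of sg2-Control read 6.27, 6.19 and 6.06. With sg1-THAP1 the values were 6.29, 6.19 and 6.36, and with sg2-THAP1 6.17, 6.17 and 6.17. The transduced libraries all lay above the untransduced ones, and the THAP1 guides lay within the range of the control guides. The change between sgTHAP1 and sgControl was -0.05 (95% confidence interval -0.16 to 0.06, limma adjusted p = 0.429, exact permutation p = 0.435), and its sign turned with scaling and with the choice of control guide. Against sg1-Control alone it was -0.15 and passed (limma adjusted p = 0.0173), and against sg2-Control alone it was 0.05. Against untransduced cells ASF1B rose by 0.45 in sgControl (SE 0.06, limma adjusted p = 3.0e-06), to 137%, and by 0.40 in sgTHAP1 (SE 0.06, limma adjusted p = 1.1e-05), to 132%. As for ASF1A, 28.1% of all genes were called higher and 40.5% lower in sgControl, and 26.9% higher and 45.5% lower in sgTHAP1.

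The guides differed slightly in ASF1B. The sg1-Control libraries were higher than the sg2-Control libraries by 0.20 (SE 0.04, limma adjusted p = 0.00325), with no overlap. The sg1-THAP1 libraries were higher than the sg2-THAP1 libraries by 0.11 (SE 0.04, limma adjusted p = 0.0419), also with no overlap. Leaving out any single THAP1 guide library other than sg1-THAP1 replicate 2 ended the latter call, with changes of 0.07 to 0.11 and limma adjusted p of 0.0793 to 0.268. Without sg2-Control replicate 3 the control difference was 0.15 (limma adjusted p = 0.0522). In ASF1A the corresponding differences were 0.0046 (95% confidence interval -0.09 to 0.10) for the control guides and 0.10 (0.0042 to 0.20, limma adjusted p = 0.0916) for the THAP1 guides. Between the control guides 3.88% of all genes were called in either direction. From sg2-THAP1 to sg1-THAP1, 11.7% were called higher and 28.3% lower.

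The balance of the paralogues moved little. ASF1B minus ASF1A was 1.03 ± 0.04 log2 RPM in untransduced cells (SD, n = 3), 1.08 ± 0.10 with sg1-Control and 0.88 ± 0.09 with sg2-Control. It was 0.87 ± 0.08 with sg1-THAP1 and 0.87 ± 0.03 with sg2-THAP1. All groups but sg1-Control and untransduced thus stood slightly lower, and sg2-Control overlapped the THAP1 guide groups. Over the 15 libraries ASF1A and ASF1B correlated at r = 0.87, a description of points that share the step from untransduced to transduced cells. CDIN1 correlated with CDAN1 at r = -0.19.

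The other 28 genes of the H3-H4 supply and deposition route, listed by function, moved in both directions. Between sgTHAP1 and sgControl 13 were lower, 7 were higher and 8 did not pass, where 32.6% of all genes were lower and 20.2% higher, with a median change of -0.11 against -0.06 over all genes tested. Median centring turned the split to 8 lower and 12 higher, so no direction of the list is given. The higher count was 4 without sg1-THAP1 replicate 2 and 3 with sg2-Control alone as the control. The 8 genes with the smallest adjusted p were led by MCM2, a helicase subunit that also holds H3-H4, with a change of -0.48 (SE 0.03, limma adjusted p = 3.1e-11). SUPT16H, a subunit of the FACT chaperone, changed by -0.31 and SPTY2D1, an H3-H4 chaperone of transcribed chromatin, by -0.56. SUPT6H, which travels with RNA polymerase II, changed by -0.29, UBN2, of the HIRA complex, by -0.28, and HAT1, which acetylates new H4, by -0.19. In the opposite direction, H3F3B, which encodes histone H3.3, and NAP1L4, a nucleosome assembly protein, both changed by 0.19. These 6 falls and 2 rises had limma adjusted p of 2.3e-05 or less.

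The partners that receive histones from ASF1, or act on it, were chosen after their values had been seen. CHAF1A and CHAF1B, subunits of the replication-coupled CAF-1 complex, fell by 0.13 and 0.31 (limma adjusted p = 0.000522 and 0.000168). HIRA, the core of the replication-independent complex, changed by 0.05 (SE 0.04, limma adjusted p = 0.359), and its partner CABIN1 fell by 0.15 (limma adjusted p = 0.00174). Of the kinases that phosphorylate ASF1, TLK1 fell by 0.22 (limma adjusted p = 0.000379) and TLK2 changed by 0.07 (SE 0.06, limma adjusted p = 0.387). IPO4, the importin that takes ASF1-bound H3-H4 into the nucleus, changed by -0.0037 (SE 0.03, limma adjusted p = 0.935). The THAP1 guides differed in some of these genes. From sg2-THAP1 to sg1-THAP1, TLK2 changed by -0.33 (limma adjusted p = 5.2e-09), TLK1 by -0.20, HIRA by -0.16 and CHAF1B by 0.32 (limma adjusted p = 1.4e-09). CHAF1A, CABIN1 and IPO4 did not pass there. Of the 28 list genes, 11 were lower and 7 higher in that comparison, where 28.3% of all genes were lower and 11.7% higher.

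Between sgControl and untransduced cells 6 of the 28 genes were lower and 15 higher, where 40.5% of all genes were lower and 28.1% higher, with a median change of 0.11 against -0.12 over all genes. The split depended on scaling, with 9 lower and 10 higher under quantile normalization and 2 lower and 19 higher under median centring. SPTY2D1 rose by 0.99 (SE 0.06, limma adjusted p = 1.5e-11), the direction opposite to its change between sgTHAP1 and sgControl. Both comparisons use the sgControl libraries. Against untransduced cells SPTY2D1 was higher in sgTHAP1 as well, by 0.42 (limma adjusted p = 2.7e-06). IPO4 rose by 0.83 from untransduced cells to sgControl (SE 0.04, limma adjusted p = 5.8e-13). MCM2 changed by -0.12 between sgControl and untransduced cells (limma adjusted p = 0.00374), which is about the median change of all genes there. Between sgTHAP1 and untransduced cells, where 45.5% of all genes were lower and 26.9% higher, 10 of the 28 were lower and 13 higher, or 14 lower and 9 higher with quantile normalization and 3 lower and 19 higher with median centring.

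**Figure D3:**
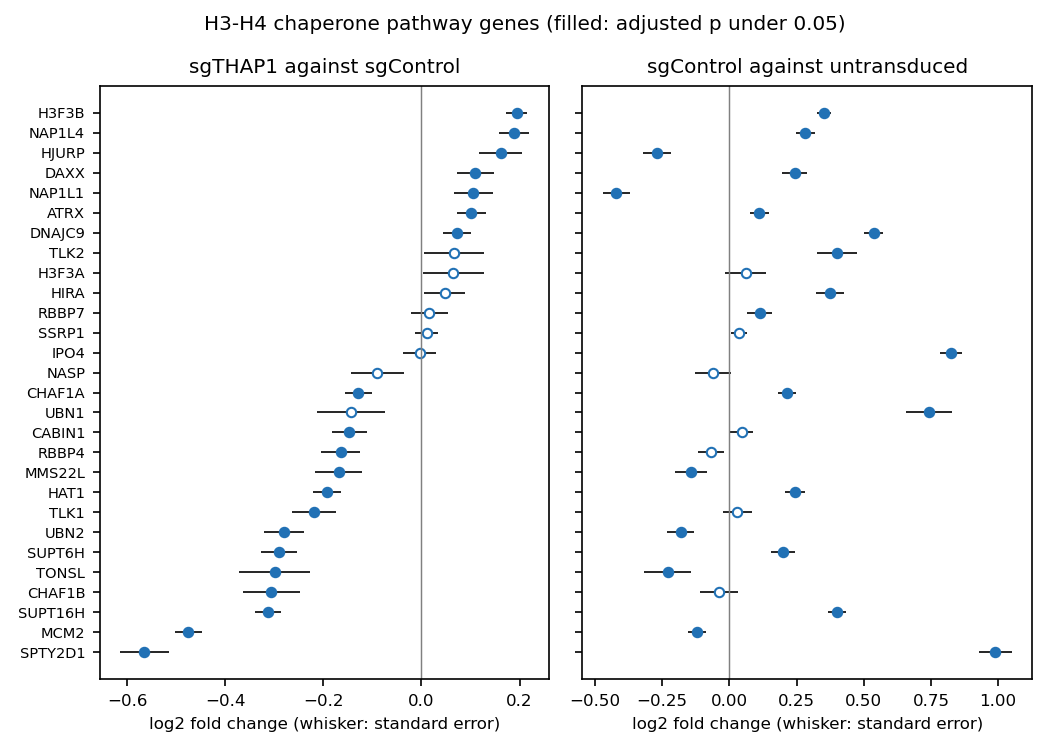
Log2 fold change and standard error of the 28 H3-H4 chaperone pathway genes between sgTHAP1 and sgControl and between sgControl and untransduced cells, with filled points where the limma adjusted p was under 0.05. SPTY2D1 is lowest in the former at -0.56 and highest in the latter at 0.99, and the horizontal scales differ.

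Genes of S phase, when new DNA is packed with histones, were counted beside ASF1B. Of 16 genes, 14 were lower and 0 higher in sgTHAP1 than in sgControl, where 32.6% of all genes were lower and 20.2% higher, and their median change was -0.26 against -0.06 over all genes. With median centring 9 were lower and 2 higher. MCM2 (-0.48) and MCM4 (-0.40), helicase subunits, had the smallest adjusted p. Against untransduced cells, 3 were lower and 10 higher in sgControl, where 40.5% of all genes were lower and 28.1% higher, with a median of 0.23 against -0.12 over all genes. With median centring 1 was lower and 12 higher. From untransduced cells to sgTHAP1, 6 were lower and 7 higher, where 45.5% of all genes were lower and 26.9% higher. Their median change there was 0.04 against -0.20 over all genes. The split was 8 lower and 2 higher with quantile normalization and 3 lower and 9 higher with median centring. The summed level of the 16 genes, in which abundant genes weigh most, was 3235 to 3260 RPM in untransduced cells, 3439 to 3667 in sgControl and 2842 to 3022 in sgTHAP1. ASF1B thus did not pass where most of this list was lower, and its part in the ASF1 values was not tested.

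HEK-293T cells are not erythroid, and the tissue in which CDIN1 and CDAN1 mutations cause disease is not represented. Of 12 erythroid markers 10 were below the filter. The defining HBB, HBG1, GATA1 and ALAS2 were at 0 reads in every library. EPOR, the erythropoietin receptor, changed by -0.01 between sgTHAP1 and sgControl (limma adjusted p = 0.966). TAL1, a blood transcription factor, had 3 to 19 reads and a change of -0.94 (SE 0.37, limma adjusted p = 0.041). Of 6 other genes of congenital dyserythropoietic anaemia, 4 were tested. Between sgTHAP1 and sgControl 0 passed, where 32.6% of all genes were lower and 20.2% higher. SEC23B, the gene of type II, changed by 0.14 (SE 0.06, limma adjusted p = 0.063) and VPS4A, a membrane-severing ATPase, by -0.06 (limma adjusted p = 0.0966). At an unadjusted p under 0.05, 1 of the 4 passed, SEC23B. All 4 were called lower with sg1-THAP1 than with sg2-THAP1, where 28.3% of all genes were lower. These guide differences ran from -0.71 in RACGAP1 (limma adjusted p = 7.0e-18) to -0.09 in VPS4A (limma adjusted p = 0.0102).

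Across the 15 libraries, PRKDC, the catalytic subunit of DNA-dependent protein kinase, and IGF2R, a receptor for mannose 6-phosphate and IGF2, were among the genes whose log2 levels followed CDIN1 most closely, at r = 0.993 each. Their changes between sgTHAP1 and sgControl were smaller (-0.52 and -0.50). The PRKDC means were 8.63 log2 RPM with sg1-THAP1 and 8.88 with sg2-THAP1, and those of IGF2R were 6.41 and 6.67, so both genes also stood lower with sg1-THAP1 than with sg2-THAP1. Closest to CDAN1 were FAM216A (r = 0.937), NAT9 (r = 0.918) and the non-coding host of small nucleolar RNAs ZFAS1 (r = 0.914). Closest to ASF1A were SAFB2 (r = 0.984), UBE2V2 (r = 0.984) and the chaperone HSP90AB1 (r = 0.983). Closest to ASF1B were the translation factor subunit EIF3B (r = 0.953), the proteasome subunit PSMD3 (r = 0.948) and CNP (r = 0.947). The points share their groups and library totals, so these values describe likeness of profile only.

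Genes around the members did not share a common change. Of all genes tested, 32.6% were called lower and 20.2% higher between sgTHAP1 and sgControl. No tested gene started within 100 kb of CDIN1. Near CDAN1, CTD-2036P10.3 had 4 to 23 reads and changed by 0.89 between sgTHAP1 and sgControl (SE 0.37, limma adjusted p = 0.0508). Near ASF1B, SAMD1, a reader of unmethylated CpG islands, rose by 0.54 (SE 0.04, limma adjusted p = 3.1e-09), MIR1199 rose by 0.58 (limma adjusted p = 0.0148) and LPHN1, an adhesion receptor, fell by 0.19 (limma adjusted p = 0.00016). PRKACA, the catalytic subunit of protein kinase A, changed by 0.03, PALM3 by 0.08 and CTB-55O6.12, whose start is 223 bp from that of ASF1B, by 0.19, and these 3 did not pass. Between sgControl and untransduced cells 40.5% of all genes were called lower and 28.1% higher. There 3 of the 6 neighbours of ASF1B rose, SAMD1 by 0.61, PRKACA by 0.53 and PALM3 by 1.59 (limma adjusted p = 3.3e-09, 5.1e-10 and 5.5e-11). MIR1199 changed most, in the opposite direction, by -2.03 (limma adjusted p = 2.0e-07), and the other two did not pass.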

How the data were processed

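PolyA-selected, strand-specific libraries of HEK-293T cells were sequenced, and groups and replicate numbers came from the sample labels. Per the submitters' processing notes and the methods of the study, the authors trimmed reads with cutadapt, aligned them to GRCh38 with HISAT2 and quantified genes in SeqMonk. The deposited values are log2 RPM, a gene without reads stands at the log2 value of 0.9 reads, and 100% of the values up to 1000 reads were whole reads within 0.01. The sources used here do not give the strand setting or annotation release of the counting. Columns of the authors' own log2 fold changes between conditions, and of their means, were not used. Replicates differed beyond counting noise (chi-square per gene 2.38 to 4.78).

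Genes were tested on the deposited log2 values with limma 3.58.1 in R 4.3.3 (lmFit, eBayes with a trend) over all 15 libraries. One fit had 3 conditions and another 1 coefficient per guide. No pseudocount was added, and the filter kept log2 values of at least -2 in at least 3 libraries. The script was tested on simulated data. Named genes were the 4 members, 3 genes with the most similar profile for each, tested genes starting within 100 kb, the 8 genes of the H3-H4 list and 2 of each other list with the smallest adjusted p between sgTHAP1 and sgControl, and THAP1. Some of these are not reported here. The members and lists were chosen with earlier results of these data known. Alternatives were another filter or none, a pseudocount of 0.5 RPM, voom on the recovered reads, median centring, quantile normalization, single guides, a replicate block and leaving out each library.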

Additional observations from a re-analysis of the deposited data

Results flagged for a closer look

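CDIN1 differed between the THAP1 guides, with a log2 change of -1.27 from sg2-THAP1 to sg1-THAP1 in the limma fit with 1 coefficient per guide.

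ASF1B differed between the guides of each pair, by 0.11 between sg1-THAP1 and sg2-THAP1 and by 0.20 between sg1-Control and sg2-Control, in the same fit.

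In CDAN1, sg2-Control replicate 2 (4.11 log2 RPM) stood apart from the other 5 sgControl libraries, with a gap of 0.761 of the group's whole range. Chance alone marks about 1 in 20 groups in this way. Without that library the CDAN1 change between sgTHAP1 and sgControl was 0.18 (limma adjusted p = 0.00652).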

How the results depend on the processing

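Across alternatives other than leaving out a library, 161 values of the 4 genes kept direction and side of the threshold, 8 newly passed, 1 no longer passed and 10 changed sign. The 161 include 12 that count CDIN1 between sgTHAP1 and sgControl again, at the study's thresholds. The filters, the replicate block and 1 coefficient per guide leave the change itself the same by design, so only the call could move. Scaling mattered most, since the median change of all genes between sgControl and untransduced cells was -0.12 as deposited, -0.0052 with quantile normalization and 0.03 with median centring. The causes were not tested. CDIN1 between sgControl and untransduced cells newly passed with a pseudocount (-0.48), voom (-0.49) and 1 coefficient per guide (-0.51). ASF1A newly passed between the THAP1 guides with quantile normalization (0.19) and median centring (0.20), and between sgTHAP1 and sgControl with median centring (0.17) and with sg1-THAP1 alone (0.11). ASF1B between sgTHAP1 and sgControl passed against sg1-Control alone (-0.15), and turned positive with quantile normalization (0.0021), median centring (0.063), sg1-THAP1 alone (0.0036) and sg2-Control alone (0.0497). Its difference between THAP1 guides (0.11) did not pass with no filter on low values (limma adjusted p = 0.125). CDAN1 between sgTHAP1 and untransduced cells turned positive with quantile normalization (0.079) and median centring (0.18), and between the THAP1 guides with median centring (0.0066). Between the control guides CDIN1 turned negative with quantile normalization (-0.0099) and median centring (-0.00050), and ASF1A with median centring (-5.5e-05). Leaving out each library gave 0.071 to 0.15 for ASF1B between the THAP1 guides. Between the control guides it gave -0.063 to 0.077 for CDIN1, -0.0036 to 0.12 for CDAN1, -0.016 to 0.036 for ASF1A and 0.15 to 0.25 for ASF1B. In 200 bases on each side of the deposited start, THAP1 consensus matches numbered 2 in CDIN1 and 1 in ASF1A, and AANATGGC 1 in ASF1A. The form ATGGCGGC, chosen after seeing the data, gave 1 in CDIN1. Once the mean of its group was subtracted from each gene, the deviations of same-numbered libraries in different groups correlated at -0.13 to 0.04 (30 pairs). The replicate numbers were therefore not treated as pairs. With the replicate block the CDIN1 change between sgTHAP1 and sgControl was -2.29, and no call of the 4 genes changed. At 33 to 38 reads, CDIN1 in sg1-THAP1 carries the largest counting error of the values reported for the 4 genes.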
